A study of Arabidopsis thaliana with 4 samples.

Results

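VANDAL elements are families of MuDR DNA transposons in *Arabidopsis thaliana*, and their transcript counts were compared between rosettes of *jmj26* and of Col-0. The members were every transposon row of the count tables whose identifier gave the superfamily DNA/MuDR and a family name beginning with VANDAL. There were 1565 such copies in 28 families, which is 5.02% of the 31189 transposon rows in the tables. Each table also held 36632 gene rows, so that the VANDAL copies were 1565 of 67821 rows. RNA-seq was available for 2 *jmj26* libraries and 2 Col-0 libraries. The *jmj26* plants were homozygous for a T-DNA insertion in *JMJ26* in the Col-0 background, and they represent a single insertion line. The Col-0 plants were the wild type of that background. All plants were sampled as whole rosettes at the 9-leaf stage, having been kept for 2 days at 4°C and then grown at 21°C with 16 h of light.

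Mutator-like transposons such as MuDR move by excision and reinsertion, and an autonomous copy encodes the transposase that its non-autonomous relatives also use. In VANDAL21 the autonomous copy, called Hiun, carries the transposase gene *VANA* together with *VANB* and *VANC*, and the VANC protein is known to cause loss of DNA methylation at copies of its own family. In wild-type rosettes most transposons are kept silent by DNA methylation in CG and non-CG contexts and by methylation of lysine 9 on histone H3. *JMJ26* encodes a protein with a jmjC domain, the domain found in histone demethylases such as IBM1.

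The deposited values were raw read counts, and they are given here as counts or as CPM, the count scaled to a library total of 1000000. The libraries held 1998601 and 1497105 counts in *jmj26*, against 1022041 and 740909 in Col-0, so that 3 counts, the smallest number taken as detectable, stood for 1.50 and 2.00 CPM in *jmj26* and for 2.94 and 4.05 CPM in Col-0. The target gene *JMJ26* (AT1G11950, minus strand of chromosome 1 from 4034479 to 4039065 in TAIR10.1) had 0 and 2 counts in *jmj26* and 1 and 0 counts in Col-0, which is too few to check the genotype. All 5 green leaf genes examined were counted, and summed to 967 and 876 CPM in *jmj26*, against 205 and 475 CPM in Col-0, although none of the 5 passed the test used below. The flower identity genes *AG*, *AP3* and *PI* and the seed storage genes *CRU3* and *SESA3* had no count in any library, and no flower, pollen, root or seed gene examined exceeded 7 counts. Genes with a gene on the other strand over part of their length were 24.9% of the gene rows. They took 92.4% and 92.5% of gene counts in *jmj26*, against 95.7% and 94.5% in Col-0. The paper describes a directional library kit, but the strand used in the counting is not given. It could therefore not be told on which strand the reads of a gene or transposon row lay. Any row may hold reads of the opposite strand in place of transcripts of the named gene or copy. The part of the leaf genes and of the strand in the VANDAL results was not tested. The labels do not say whether the libraries of a genotype came from separate plants, and p-values therefore measure only the spread between these libraries.

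The second *jmj26* library stood apart from the other 3. It had 0 counts on 23 rows that held at least 30 counts in each of the other libraries, and all 23 were transposon rows. No other library had such a row. VANDAL copies were 4 of the 23. AT1TE98655 (VANDAL5) had 301 and 0 counts in *jmj26*, against 156 and 89 in Col-0. AT2TE43060 (VANDAL2) had 89 and 0 counts in *jmj26*, against 72 and 34 in Col-0. AT2TE89480 (VANDAL13) had 303 and 0 counts in *jmj26*, against 150 and 126 in Col-0. All *jmj26* counts of these copies thus came from the first library. The same held for AT3TE47910 (VANDAL16), with 98 and 0 counts in *jmj26*, against 50 and 35 in Col-0. What set this library apart was not tested, and the values without it are given beside the copies and families they change most.

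**Figure D1:**
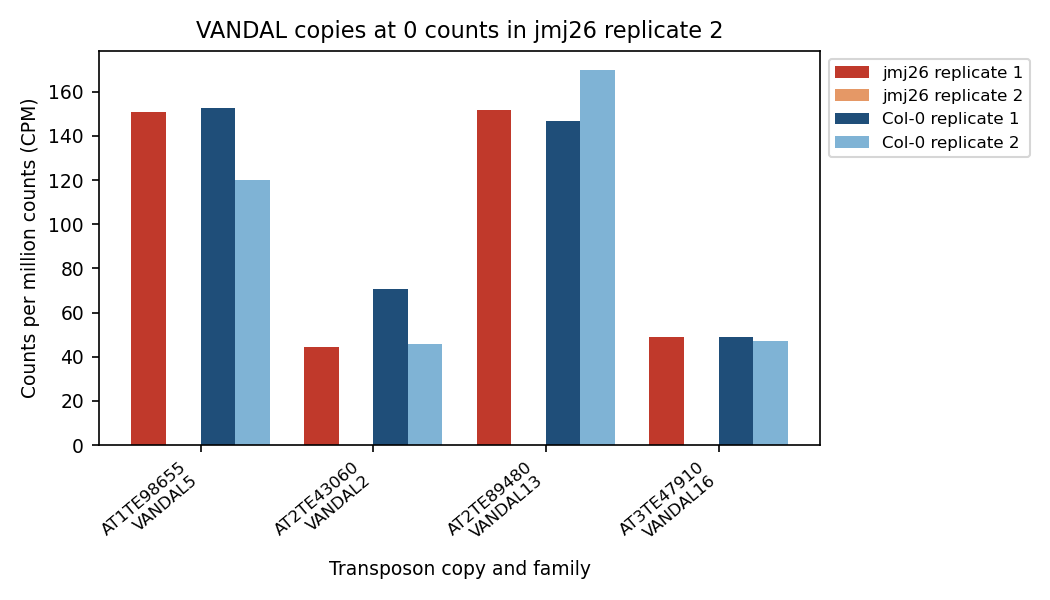
VANDAL copies with no count in *jmj26* replicate 2 and at least 30 counts in each of the other 3 libraries. Bars give the CPM of each single library. AT2TE89480 reached 152 CPM in *jmj26* replicate 1 and 147 and 170 CPM in Col-0, with 0 in *jmj26* replicate 2.

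Most VANDAL copies had few counts or none. Of the 1565 copies, 534 (34.1%) had a count in at least 1 library, against 917 of 3845 other MuDR copies (23.8%) and 7703 of all 31189 transposon rows (24.7%). The remaining 1031 VANDAL copies had none. Only 183 copies had a count in every library, and 1357 copies held 3 counts or fewer in each library. The copies with a count numbered 378 and 331 in *jmj26* and 303 and 298 in Col-0, the deeper libraries showing more. A filter on low counts left 133 copies of 20 families for testing. It asks for enough counts in 2 libraries, which may both belong to 1 genotype. Among copies described below, AT5TE46155, AT5TE46165 and AT5TE46175 passed it only through Col-0, where they were high. AT3TE44395 and AT2TE25300 passed it only through *jmj26*. That such copies were tested is therefore no support for their differences. The 401 copies that were counted but not tested made up 0.746% and 0.967% of the VANDAL counts in *jmj26*, against 0.746% and 0.936% in Col-0.

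The VANDAL copies together took a similar share of the counts in both genotypes. The share was 4.56% (95% Wilson interval 4.53 to 4.59) and 4.30% (4.27 to 4.34) in *jmj26*, against 4.44% (4.40 to 4.48) and 3.96% (3.92 to 4.01) in Col-0. The means were 4.43% ± 0.183 in *jmj26* and 4.20% ± 0.333 in Col-0 (SD, n = 2 each). The difference of 0.234 percentage points lay within the spread of the libraries (two-sided exact permutation test, p = 0.667). With 2 libraries per genotype this test can give no p below 0.333. The intervals cover counting error only. Among transposon counts alone, the VANDAL share was 26.5% and 24.1% in *jmj26*, against 25.4% and 18.3% in Col-0.

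These counts were concentrated in few families and few copies. VANDAL17 alone held 60.4% of all VANDAL counts, followed by VANDAL21 with 18.3%, VANDAL8 with 9.44% and VANDAL1 with 5.20%. VANDAL5 held 1.42% and VANDAL6 held 1.25%, and every other family held less than that. The 8 most counted copies held 46.9% of the counts. By the chromosome named in the identifier, chromosomes 4 and 5 carried 30.5% and 29.3% of the VANDAL counts, chromosome 1 carried 17.8%, chromosome 3 carried 13.9% and chromosome 2 carried 8.44%. The number of copies per chromosome was more even and ranged from 268 on chromosome 4 to 338 on chromosome 1.

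**Figure D2:**
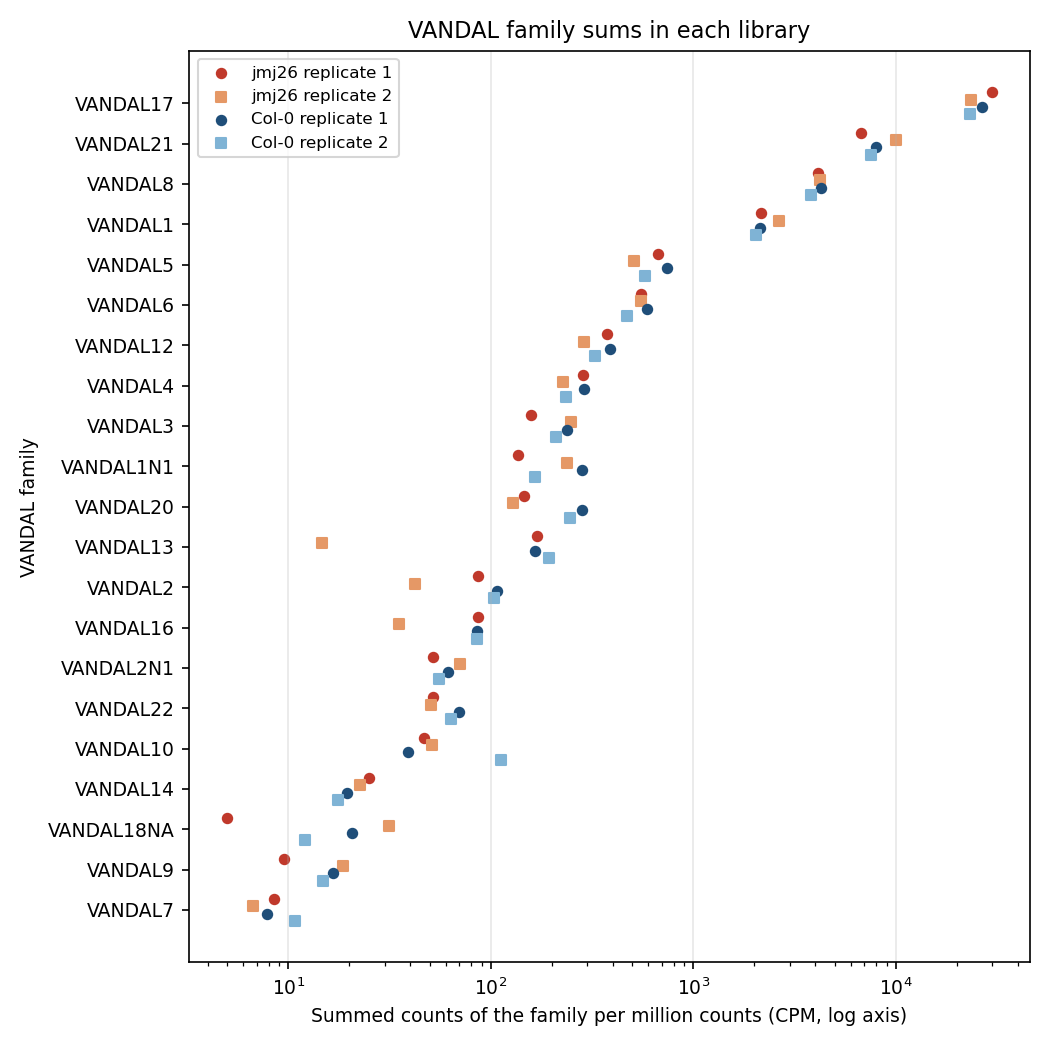
Summed counts of each tested VANDAL family in CPM (log axis) in the single libraries, with families ordered by their counts. VANDAL17 reached 29712 and 23608 CPM in *jmj26* and 26587 and 23365 CPM in Col-0, and of the families whose libraries did not overlap VANDAL20 was the farthest apart, with 147 and 129 CPM in *jmj26* and 283 and 246 CPM in Col-0.

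Copies were then compared between *jmj26* and Col-0 with edgeR's quasi-likelihood test, fitted on all gene and transposon rows together, with Benjamini-Hochberg adjustment over the 6078 rows tested. A single VANDAL copy of 133 passed an adjusted p (FDR) of 0.05, the VANDAL20 copy AT5TE46165, which fell in *jmj26*. Over all rows tested 0.0823% passed this threshold, 0.0494% being lower and 0.0329% higher. At an unadjusted p under 0.05 there were 8 VANDAL copies, 3 higher and 5 lower in *jmj26*. That is 6.02% of those tested, below the 8.04% of all transposon rows tested, of which 3.43% were higher and 4.61% lower. Other MuDR copies had 8 of 125 at this level. Both *jmj26* libraries lay above both Col-0 libraries in 20 VANDAL copies and below them in 17, which is 27.8% of the copies tested, beside 31.3% of all transposon rows (14.2% higher and 17.1% lower). The single call is 0.752% of the VANDAL copies tested, beside 0.355% of all transposon rows and 0.0823% of all rows tested. That share rests on a single copy. The shares at the unadjusted p and without overlap were below those of transposon rows in general.

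Most VANDAL copies differed little between the genotypes. The median log2 fold change (*jmj26* over Col-0) of the 133 copies was 0.0095, with quartiles of -0.27 and 0.13, whereas over the 846 transposon rows tested it was -0.077 with quartiles of -0.38 and 0.18. In VANDAL, 71 copies lay above 0 and 62 below, and 106 stayed within 0.5 of 0 on the log2 scale. Well counted copies were the least variable. Among the 75 copies with a mean of at least 100 CPM, 71 were within 0.5 of 0, against 24 of the 35 copies between 20 and 100 CPM and 11 of the 23 copies below 20 CPM. Only 8 copies exceeded 1 on the log2 scale in either direction, 2 above and 6 below. Of the 6 below, AT2TE43060, AT2TE89480 and the VANDAL21 copy AT2TE51070 (16 and 1 counts in *jmj26*, 12 and 12 in Col-0) had at most 1 count in the second *jmj26* library. Without that library their log2 fold changes were -0.43 for AT2TE43060, -0.099 for AT2TE89480 and -0.81 for AT2TE51070. The other 3 were all VANDAL20, and in AT5TE46155 and AT5TE46175 that library also held 1 count.

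**Figure D3:**
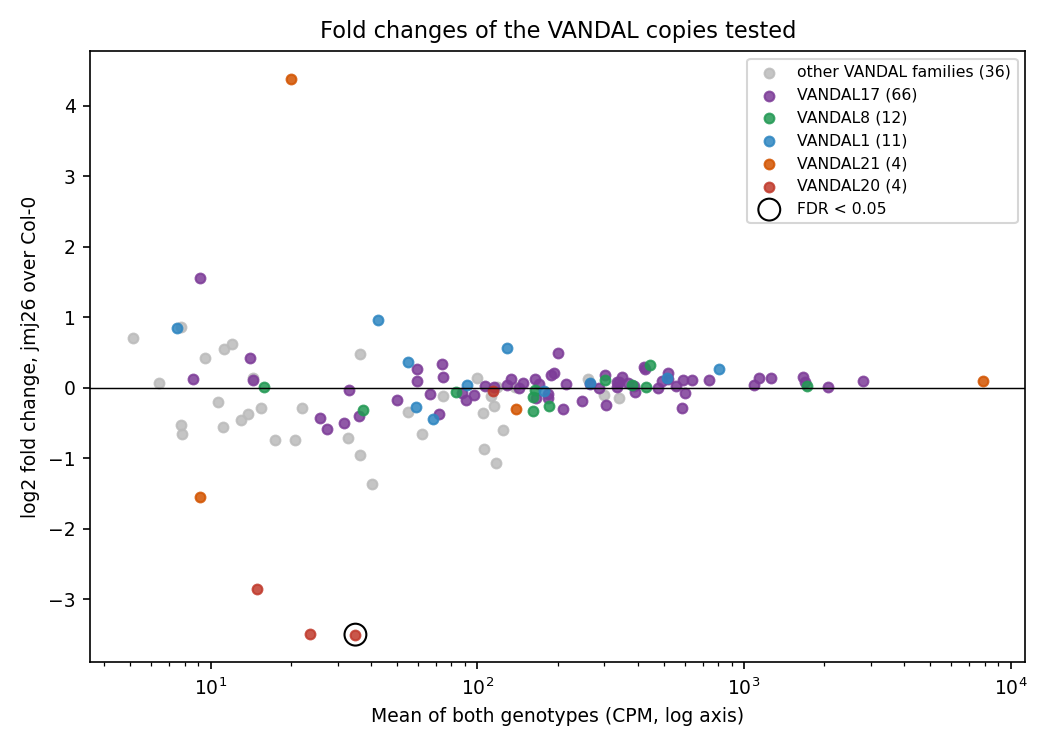
log2 fold change (*jmj26* over Col-0) of the 133 VANDAL copies tested against their mean level (CPM, log axis), coloured by family. The ringed point is AT5TE46165, at -3.51, the single copy with FDR under 0.05, and the 2 other VANDAL20 points near it are AT5TE46155 at -3.49 and AT5TE46175 at -2.85.

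The VANDAL20 copies that were lower in *jmj26* have identifiers that follow each other on chromosome 5. AT5TE46165 had 12 and 8 counts in *jmj26*, against 76 and 40 in Col-0. In CPM this was 6.0 and 5.34 in *jmj26*, against 74.4 and 54.0 in Col-0, so both *jmj26* libraries were far below both Col-0 libraries. Its mean was 5.67 ± 0.467 CPM in *jmj26* and 64.2 ± 14.4 CPM in Col-0 (SD, n = 2 each). The log2 fold change was -3.51 (SE 0.29), with an adjusted p of 0.0412 over all rows tested and of 0.00955 when adjusted over the 846 transposon rows, of which 0.355% passed (edgeR's quasi-likelihood test, Benjamini-Hochberg). The direction held in all 11 alternatives in which it was tested, with a log2 fold change between -3.77 and -3.39, and the call held in 6 of them. The adjusted p was 0.591 without the second *jmj26* library and 0.0116 without the first *jmj26* library. It was 0.0878 without the first Col-0 library and 0.0571 without the second Col-0 library. The call was also lost when transposon rows were fitted alone (adjusted p = 0.159) and with the replicate number as a block (adjusted p = 0.122). All of these alternatives draw on the same libraries, in which the genotypes lie far apart. Their shared direction was therefore fixed in advance and is no further support.

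The VANDAL20 copies next to it showed the same direction without passing the test. AT5TE46155 had 13 and 1 counts in *jmj26*, against 48 and 30 in Col-0, which is 6.50 and 0.668 CPM in *jmj26* and 47.0 and 40.5 CPM in Col-0. Its log2 fold change was -3.49 (SE 0.63, edgeR adjusted p = 0.255). AT5TE46175 had 12 and 1 counts in *jmj26*, against 25 and 21 in Col-0, with a log2 fold change of -2.85 (SE 0.65, edgeR adjusted p = 0.255). In both copies the second *jmj26* library was the lowest of the 4, but the first was also below either Col-0 library. Without the second *jmj26* library the log2 fold changes were -2.77 for AT5TE46155 and -2.14 for AT5TE46175. The VANDAL20 rows AT5TE46170 and AT5TE46180 had no count in any library. AT5TE46160, an ATGP10 retrotransposon of the Gypsy superfamily listed between the VANDAL20 rows, had 2 and 0 counts in *jmj26* and 6 and 9 in Col-0, too few for the test. The next rows on either side had no count in any library. This stretch of rows was picked out after its values had been seen, and reads with several hits are divided among copies by the counting, so the values of single VANDAL20 copies are uncertain.

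**Figure D4:**
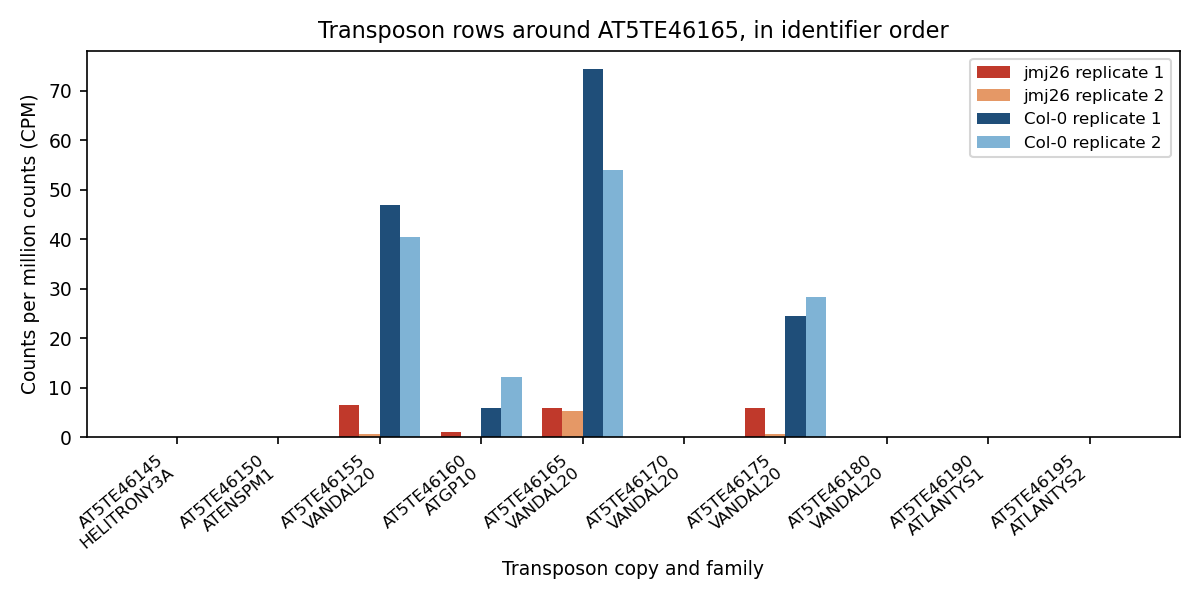
Transposon rows around AT5TE46165 in the order of their identifiers, which run along chromosome 5. Bars give the CPM of each library. Both *jmj26* libraries were below both Col-0 libraries in the VANDAL20 copies AT5TE46155, AT5TE46165 and AT5TE46175, and the outer rows were at 0 everywhere.

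As sums, the VANDAL20 rows of that stretch were lower in *jmj26*, and the other VANDAL20 rows were nearly level. The 5 VANDAL20 rows from AT5TE46155 to AT5TE46180 summed to 37 and 10 counts in *jmj26*, against 149 and 91 in Col-0. In CPM the sum was 12.6 ± 8.37 in *jmj26* and 134 ± 16.2 in Col-0 (SD, n = 2 each). The other 46 VANDAL20 rows summed to 128 and 122 CPM in *jmj26*, against 137 and 123 CPM in Col-0. The libraries of the 2 genotypes overlapped there, and the log2 fold change was -0.087 (SE 0.15, edgeR adjusted p = 0.894), from a fit that was added after the data had been seen. The rows left out include those seen to be low, so a smaller change was bound to follow. This fit is therefore no test of where the difference lies. The most counted of them, AT1TE35930, held 63.2% of the family's counts and had 116 and 112 CPM in *jmj26*, against 125 and 105 CPM in Col-0. The whole family had 293 and 193 counts in *jmj26*, against 289 and 182 in Col-0. Its log2 fold change was -0.97 (SE 0.15), with an adjusted p of 0.147 in the edgeR fit of family sums. This did not pass the threshold, although the unadjusted p of 4.98e-04 was the smallest among VANDAL families.

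The largest difference in the other direction was in VANDAL21. AT3TE44395 had 51 and 77 counts in *jmj26*, against 2 and 1 in Col-0, or 25.5 and 51.4 CPM in *jmj26* and 1.96 and 1.35 CPM in Col-0. The Col-0 values were below the 3-count floor and both *jmj26* libraries were well above it. The ratio of its pooled CPM, *jmj26* over Col-0, was 21.5, with an exact 95% interval for counting error of 7.20 to 106. The fitted log2 fold change was 4.39 (SE 0.65), with an edgeR adjusted p of 0.255, so it did not pass. Across the alternatives it lay between 3.80 and 4.80, and the threshold was passed in 3 of 11. Without the second *jmj26* library it was 3.80, with an adjusted p of 0.627.

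The row after AT3TE44395 was also higher in both *jmj26* libraries. AT3TE44400, of the HELITRONY1B family of rolling-circle Helitron transposons, had 20 and 17 counts in *jmj26*, against 1 and 0 in Col-0, with a log2 fold change of 4.00 (SE 0.78, edgeR adjusted p = 0.255). Beyond it AT3TE44405 (ATREP11) had 1 and 1 counts in *jmj26* and none in Col-0, and the row before, AT3TE44385, had none in any library. AT3TE44395 is 1 of 64 VANDAL21 copies. Nearly all counts of the family came from another copy, AT4TE59630, which held 97.6% of them. With AT4TE59630 left out, the other 63 copies summed to 190 and 189 CPM in *jmj26*, against 209 and 158 CPM in Col-0, and overlapped.

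The second VANDAL copy above 1 on the log2 scale also lay next to a row that was higher in *jmj26*. AT2TE25300, of VANDAL17, had 26 and 22 counts in *jmj26*, against 5 and 3 in Col-0. This was 13.0 and 14.7 CPM in *jmj26* and 4.89 and 4.05 CPM in Col-0. The replicates of each genotype were close to each other and did not overlap between genotypes. The log2 fold change was 1.56 (SE 0.39, edgeR adjusted p = 0.260). The row before it, AT2TE25295, is an ATHILA2 copy of the Gypsy retrotransposons and had 181 and 311 CPM in *jmj26*, against 94.9 and 45.9 CPM in Col-0, with a log2 fold change of 1.76 (SE 0.41, edgeR adjusted p = 0.255). The rows AT2TE25290 and AT2TE25305 on the outside were at 0 in every library. As before, the neighbouring rows were chosen after their values were seen, and the tables give no coordinates from which a distance or shared transcript could be judged.

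**Figure D5:**
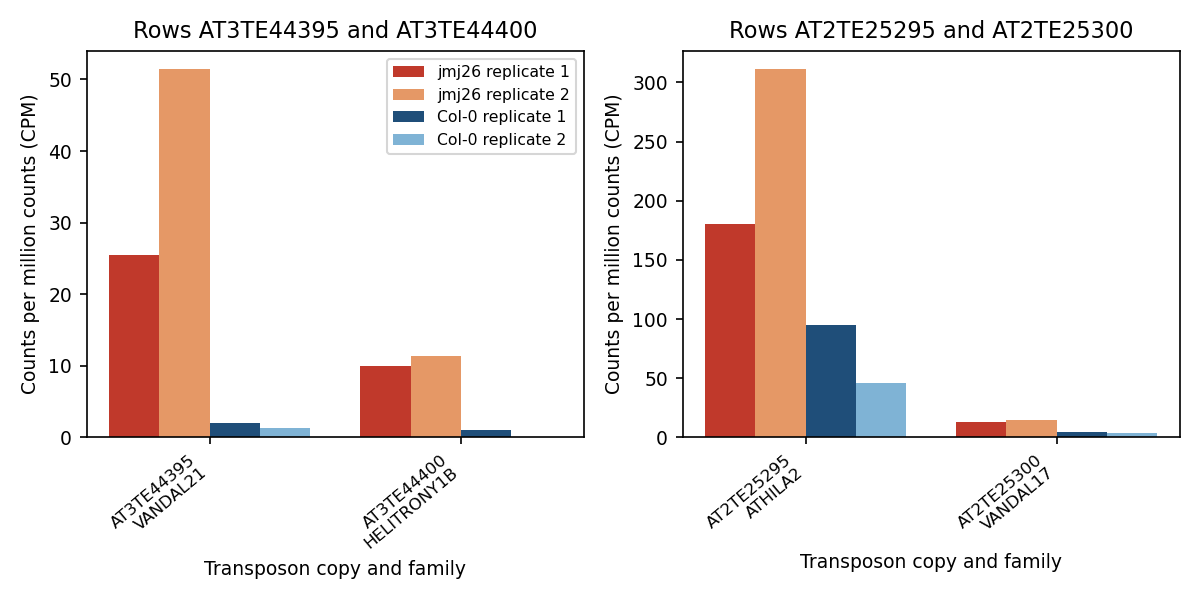
The 2 VANDAL copies that exceeded 1 on the log2 scale in *jmj26*, each with the adjacent transposon row. Bars give the CPM of each library. In all 4 rows both *jmj26* libraries were above both Col-0 libraries, and none of the 4 passed an FDR of 0.05.

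The remaining copies picked by their small p-values and by libraries that did not overlap were closer to Col-0, and none passed an FDR of 0.05. Of those higher in both *jmj26* libraries, AT3TE24460 (VANDAL1) had 79 and 111 counts in *jmj26*, against 34 and 17 in Col-0, with a log2 fold change of 0.96 (SE 0.39) that was 0.44 without the second *jmj26* library. A second VANDAL1 copy, AT3TE35260, had 239 and 288 counts in *jmj26*, against 100 and 80 in Col-0 (log2 fold change 0.57, SE 0.27, and 0.18 without that library). AT2TE52640 of VANDAL5 had 82 and 66 counts in *jmj26*, against 32 and 21 in Col-0 (log2 fold change 0.48, SE 0.22). The other 3 were VANDAL17 copies on chromosome 3, and their changes were small but their counts high. AT3TE09350 had 464 and 363 counts in *jmj26*, against 174 and 118 in Col-0, with a log2 fold change of 0.50 (SE 0.14, edgeR adjusted p = 0.264). AT3TE02100 and AT3TE06050 had log2 fold changes of 0.34 and 0.29.

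Outside VANDAL20, 14 copies of 10 families were lower in both *jmj26* libraries, and the 5 with the smallest p are given here. AT1TE14590, the most counted VANDAL3 copy, had 185 and 164 counts in *jmj26*, against 165 and 102 in Col-0. Since the *jmj26* libraries were deeper, this was 92.6 and 110 CPM in *jmj26*, against 161 and 138 CPM in Col-0, and the log2 fold change was -0.60 (SE 0.17, edgeR adjusted p = 0.269). AT2TE20170 (VANDAL2N1) had 58 and 31 counts in *jmj26*, against 40 and 31 in Col-0 (log2 fold change -0.72, SE 0.26). The remaining 3 were AT1TE69805 (VANDAL6) at -0.74, and at -0.47 without the second *jmj26* library, AT1TE94285 (VANDAL17) at -0.58 and AT4TE63095 (VANDAL1) at -0.45. The VANDAL1 and VANDAL17 families thus had copies in both directions.

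VANDAL17, the family with most of the counts, was nearly level between the genotypes. It has 178 copies, of which 102 were counted and 66 tested. The family sum was 29712 and 23608 CPM in *jmj26*, against 26587 and 23365 CPM in Col-0, with a log2 fold change of 0.062 (SE 0.14). The median of its copies was 0.055 on the log2 scale, with quartiles of -0.071 and 0.13, and 63 of the 66 were within 0.5 of 0. Libraries overlapped in 52 copies, were higher in *jmj26* in 12 and lower in 2. Over all transposon rows tested, 14.2% were higher and 17.1% lower without overlap. The first replicate was above the second in 55 of the 66 copies in *jmj26* and likewise in 55 in Col-0, so the spread within each genotype was shared by most copies of the family.

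The most counted VANDAL copies were not separated between *jmj26* and Col-0. AT4TE59630 (VANDAL21) came first, with 13142 and 14699 counts in *jmj26*, against 7911 and 5446 in Col-0. In CPM the *jmj26* libraries, at 6576 and 9818, enclosed the Col-0 libraries, at 7740 and 7350. The log2 fold change was 0.091 (SE 0.21). The next was AT1TE17050 (VANDAL17), with 3273 and 2561 CPM in *jmj26*, against 2727 and 2631 CPM in Col-0, again enclosing them. AT5TE18975, the top copy of VANDAL8, had 1847 and 1651 CPM in *jmj26*, against 1845 and 1528 CPM in Col-0, with a log2 fold change of 0.024 (SE 0.14). The other 5, all VANDAL17 (AT4TE63170, AT5TE81110, AT2TE41390, AT5TE90145 and AT3TE88380), had log2 fold changes between 0.0040 and 0.15, with overlapping libraries in each.

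Summed by family, VANDAL transposons gave no call. In a fit of family sums with all gene rows, 21 VANDAL families were tested and 0 passed an FDR of 0.05 in edgeR, against 0.0552% of all rows of that fit and 0.0% of the 203 transposon families. At an unadjusted p under 0.05 there was 1, VANDAL20, beside 6.4% of transposon families and 14.8% of all rows of the fit, and DESeq2's Wald test called 1 VANDAL family at FDR 0.05. The median log2 fold change of the 21 families was -0.17, with 8 above 0 and 13 below, whereas over all 203 transposon families it was -0.091, with 131 below 0. The other 7 families were too low to test. They ranged from VANDAL15, with a single count in 1 Col-0 library, to VANDAL5A, with 11 and 6 counts in *jmj26* and 8 and 8 in Col-0.

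Besides VANDAL20, libraries were apart in 4 of the tested families, and the share over all transposon families was not computed. Among single transposon rows tested, libraries did not overlap in 31.3%, so such a separation is common among copies. That share is of copies and not of family sums. How common it is among families therefore cannot be told here. VANDAL22 had 51.5 and 50.8 CPM in *jmj26*, against 69.5 and 63.4 CPM in Col-0 (log2 fold change -0.41, SE 0.18, edgeR adjusted p = 0.379). VANDAL2 was lower, with 86.6 and 42.1 CPM in *jmj26*, against 108 and 104 CPM in Col-0 (log2 fold change -0.74, SE 0.33, edgeR adjusted p = 0.379). VANDAL1 and VANDAL14 were higher. VANDAL1 had 2161 and 2651 CPM in *jmj26*, against 2129 and 2045 CPM in Col-0 (log2 fold change 0.17, SE 0.15), a gap to the nearest Col-0 library that was small beside the spread in *jmj26*. VANDAL14 had 25.0 and 22.7 CPM in *jmj26*, against 19.6 and 17.5 CPM in Col-0 (log2 fold change 0.33, SE 0.26).

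Several of the lower family values rested on the second *jmj26* library and its copies at 0. VANDAL13 had 337 and 22 counts in *jmj26*, against 169 and 144 in Col-0, with a log2 fold change of -0.98 that was -0.13 without that library. Without it VANDAL2 was at -0.33, beside -0.74 with all libraries. VANDAL16 was at -0.011 without it and at -0.49 with it, and VANDAL5 at -0.015 without it and at -0.19 with it. VANDAL20 kept -0.89 without it, beside -0.97 with all libraries. In the other tested families the libraries overlapped. VANDAL21 (0.087), VANDAL17 (0.062), VANDAL6 (0.027), VANDAL8 (0.015), VANDAL2N1 (0.015) and VANDAL18NA (0.0085) lay just above 0 on the log2 scale. VANDAL4 (-0.068), VANDAL12 (-0.14), VANDAL3 (-0.17), VANDAL9 (-0.24), VANDAL7 (-0.27), VANDAL1N1 (-0.30) and VANDAL10 (-0.62) lay below it. Their standard errors were between 0.13 for VANDAL8 and 0.84 for VANDAL18NA, and every one but VANDAL7 changed sign in at least 1 alternative. VANDAL18NA, with the largest of these errors, had 10 and 47 counts in *jmj26*, against 21 and 9 in Col-0.

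The genes of the autonomous VANDAL21 copy Hiun had no count. *VANC* (AT2G23480, plus strand of chromosome 2 from 10001893 to 10004688 in TAIR10.1), *VANB* (AT2G23490, minus strand, 10005109 to 10005684) and *VANA* (AT2G23500, minus strand, 10006560 to 10008914) were at 0 in all 4 libraries, which allows up to 2.00 CPM in the shallower *jmj26* library and up to 4.05 CPM in the shallower Col-0 library. Since the strand of the reads could not be told for gene rows either, these zeros do not show whether Hiun was transcribed, and the counts of the silencing genes below may include reads of the opposite strand. Among 20 genes of transposon silencing and its control, 18 had a count but none reached the test. The maintenance methyltransferase gene *MET1* had 11 and 7 counts in *jmj26*, against 1 and 2 in Col-0. *CMT3*, which methylates CHG sites, had 11 and 4 counts in *jmj26* and none in Col-0. *ROS1*, which removes DNA methylation, had 8 and 9 counts in *jmj26*, against 1 and 0 in Col-0. These are raw counts from deeper *jmj26* libraries, and no gene of the list exceeded 15 counts. *CMT2* had 10 and 6 counts in *jmj26*, against 2 and 4 in Col-0, and *IBM1* had 8 and 4, against 1 and 1. *AGO4* had 5 and 3 counts in *jmj26* and none in Col-0, and *MOM1* had 5 and 5, against 1 and 0. Not every gene of the list followed. *SUVH6* had 8 and 0 in *jmj26*, against 2 and 2 in Col-0, and *NRPD1* and *RDR2* were counted only in Col-0. The list summed to 47.5 and 48.8 CPM in *jmj26*, against 22.5 and 27.0 CPM in Col-0. The green leaf genes, given above, were higher in the same libraries, and a connection between the lists and the VANDAL copies was not tested.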

How the data were processed

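Read counts per gene and per transposon copy of 2 *jmj26* and 2 Col-0 libraries were used as deposited, with genotypes as labelled. These counts were made by the authors with fastp for trimming, STAR 2.7 for alignment with multiple hits kept, and TEcount for counting on Araport11. The libraries were made with a directional kit, but the strand setting of the counting is not given in the sources used here. TEcount divides reads with several hits among copies. Transposon rows carry no coordinates, and gene coordinates are from TAIR10.1, in which the gene identifiers were found.

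The test was that of edgeR 4.0.16 in R 4.3.3 (filterByExpr, TMM, estimateDisp, glmQLFit with legacy = TRUE, glmQLFTest) on all 6078 gene and transposon rows that passed the filter, and again on 5435 rows after copies were summed by family. The biological coefficient of variation was 24.4% for copies and 18.6% for families. The standard error was taken as the size of the log2 fold change over the square root of its F. The fit was also run on simulated counts, drawn with a single spread for all rows and with no library set apart. Those settings differ from these data, and the run is not used as support. DESeq2 1.42.0 served as an alternative, with scipy 1.17.1 and pandas 2.3.3 for shares and sums.

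The members and lists were chosen with earlier results of these data known. Named copies were those with FDR under 0.05, up to 8 per direction with the smallest p and libraries that did not overlap, the 8 most counted, and any at 0 in both libraries of one genotype with at least 10 counts in both of the other, of which there was none. All tested families, *JMJ26*, the Hiun genes and 20 silencing genes were also named. Other copies and all neighbouring rows were chosen after their values were seen. The alternatives were other filters, normalizations and tests, transposon rows alone, each library left out, the replicate number as a block, and, added after seeing the data, VANDAL20 without 5 of its rows. DNA methylation was not analysed here.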

Additional observations from a re-analysis of the deposited data

How the results depend on the processing

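The number of VANDAL copies with FDR under 0.05 (1; 0 higher and 1 lower) was 10 with no filter (4 higher, 6 lower), 3 with DESeq2's Wald test (1 higher, 2 lower), and 0 with transposon rows only (0 lower) or when every library had to hold at least 10 counts (0 lower), a filter that AT5TE46165 does not pass. It ranged from 0 to 9 when each library was left out (higher 0 to 2, lower 0 to 7), with 9 without the first *jmj26* library and 0 without any other. The count at an unadjusted p under 0.05 (8) was 28 with no filter and 7 to 30 with a library left out, and that of families with FDR under 0.05 (0) was 3 with no filter, 1 with DESeq2's Wald test and 0 to 3 with a library left out. The cause of these shifts was not tested. With no filter 534 copies were tested. The median of the copies stayed between -0.14 and 0.071. The share difference was 3.48 percentage points of transposon counts, and -0.0015 to 0.469 of all counts with a library left out.

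With the replicate number as a block, 0 copies passed (0 lower), and AT5TE46165 had a log2 fold change of -3.51 with an adjusted p of 0.122. What libraries of one number have in common is not labelled, and their deviations correlated at -0.088 across rows. With transposon rows only its adjusted p was 0.159. AT5TE46165 ranged from -3.77 to -3.39 with a library left out.

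Values near 0 changed sign in places, none of them called in either setting. With no filter AT4TE63170 was at -0.069, AT5TE18975 at -0.050, and the families VANDAL17 at -0.045, VANDAL21 at -0.017, VANDAL8 at -0.091, VANDAL6 at -0.081, VANDAL2N1 at -0.091 and VANDAL18NA at -0.089. With DESeq2's size factors AT4TE63170 was at -0.025, AT5TE18975 at -0.0052, VANDAL8 at -0.017, VANDAL6 at -0.0042, VANDAL2N1 at -0.016 and VANDAL18NA at -0.020. With DESeq2's Wald test AT4TE63170 was at -0.026, AT5TE18975 at -0.0059, VANDAL8 at -0.017, VANDAL6 at -0.0057 and VANDAL2N1 at -0.012. VANDAL4 was at 0.027 with transposon rows only, and with the replicate block VANDAL2N1 was at -0.0017 and VANDAL18NA at -0.25. With a library left out the ranges of log2 fold changes were -0.24 to 0.34 for AT4TE59630, -0.10 to 0.25 for AT1TE17050, -0.17 to 0.14 for AT4TE63170, -0.16 to 0.097 for AT5TE18975, -0.17 to 0.29 for AT5TE81110, -0.12 to 0.37 for AT2TE41390, -0.059 to 0.28 for AT5TE90145 and -0.015 to 0.27 for AT3TE88380. For families they were -0.12 to 0.21 for VANDAL17, -0.23 to 0.33 for VANDAL21, -0.13 to 0.021 for VANDAL8, -0.19 to 0.051 for VANDAL6, -0.35 to 0.034 for VANDAL12, -0.28 to 0.082 for VANDAL4, -0.54 to 0.12 for VANDAL3, -0.76 to 0.043 for VANDAL1N1, -0.22 to 0.22 for VANDAL2N1, -1.37 to 0.23 for VANDAL10, -1.77 to 0.86 for VANDAL18NA and -0.77 to 0.20 for VANDAL9.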

Other observations

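Of the 534 VANDAL copies with a count, 224 had counts in 1 genotype only. There were 144 (27.0%) with counts only in *jmj26*, against 80 (15.0%) only in the shallower Col-0 libraries, beside 38.3% and 22.1% over the 7703 transposon rows with a count. The highest had 27 counts in a library in *jmj26* and 3 in Col-0. AT1TE38090 (VANDAL2N1) had 4 and 27 counts in *jmj26* and none in Col-0. AT5TE49335 (VANDAL2) had 5 and 3 counts and AT5TE23540 (VANDAL1) had 6 and 1 counts in *jmj26*, again with none in Col-0. In the other direction AT3TE59685 (VANDAL5) had no count in *jmj26* and 3 and 2 counts in Col-0.

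For a comparison of replicates, CPM below the 3-count floor of a library were raised to that floor. Replicates of *jmj26* then disagreed by at least 4-fold in 7 of the 133 tested copies, against 1 copy for those of Col-0. The share over all rows tested was not computed. The floor left out copies whose plain CPM differed by more than 4-fold. AT2TE51070, AT5TE46155 and AT5TE46175, each with 1 count in the second *jmj26* library, were left out in this way. So were AT5TE56255 (13 and 2 counts) and AT1TE64170 (0 and 6 counts) in Col-0. The first *jmj26* library was the higher one in 4 of the 7 and the second in 3. The 4 are the copies already described as having no count in the second *jmj26* library. AT5TE11835 (VANDAL18NA) had 3 and 40 counts in *jmj26*, against 13 and 3 in Col-0. AT3TE57645 (VANDAL8) had 393 and 1197 counts in *jmj26*, against 340 and 334 in Col-0. These copies were chosen after their values were seen.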
